A study of Mus musculus with 4 samples.

Results

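Photoreceptor ribbon synapse genes encode the release machinery of the rod and cone terminal. The 10 genes followed here were taken by symbol from a list of ribbon and active zone genes, out of 21831 genes in the tables, and all 10 had an estimate with status OK in every library. They are Bsn, Pclo, Ctbp2 and Rims2 of the ribbon and its scaffold, Cacna1f, Cacnb2 and Cacna2d4 of the calcium channel, the regulators Cabp4 and Unc119, and the complexin Cplx4.

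The terminal of a photoreceptor releases glutamate continuously in the dark, and it does so from an active zone that is organised by a plate-like ribbon covered with tethered vesicles. The ribbon is built mainly of RIBEYE, an isoform of CtBP2, and Bassoon anchors it beside L-type calcium channels, which open at the resting voltage of the dark-adapted cell and let in the calcium that drives release. Cones and bipolar cells also carry ribbons, so that most of these genes are not markers of rods alone.

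To compare rods with the other retinal cells, with and without Ezh2, poly(A) RNA was sequenced from mouse retina sorted for Cd73, a surface enzyme (gene Nt5e) of rods and their precursors, into a positive (Cd73P) and a negative (Cd73N) fraction. The 4 groups were Cd73N and Cd73P cells of wild type and of Ezh2-cKO mice at postnatal day 12, each with 1 library, on the slc:ICR background. Ezh2 encodes the methyltransferase of Polycomb repressive complex PRC2, and in the Ezh2-cKO it was deleted with a Dkk3 promoter-driven Cre that is active in retinal progenitor cells, so that rods and other retinal cells descend from recombined progenitors. Littermates served as controls.

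Because each group was a single library, no difference below has a replicate check and none was tested. A gene was called higher or lower past 1.5-fold, the threshold of the study, on the log2(FPKM + 1) scale, and standard errors (SE) reflect the counting of reads within a library and nothing else. In bulk RNA, fewer cells of a type and less RNA per cell cannot be told apart. FPKM is scaled by transcript length, so levels of different genes can be set side by side. Values of a gene are given in the order Cd73N wild type, Cd73N labelled Ezh2-cKO, Cd73P wild type and Cd73P labelled Ezh2-cKO unless said otherwise.

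Markers of the fractions followed the labels. Nt5e was 0.844, 0.609, 125 and 123 FPKM. The 11 rod markers with a usable value in all libraries summed to 1568, 1655, 17390 and 24090 FPKM, the 10 cone markers to 4721, 6078, 422 and 200 FPKM, and the 12 bipolar markers to 2238, 1311, 190 and 65.0 FPKM. No marker of these 3 lists was at 0 in any library. The targeted gene went against its label in 1 fraction: Ezh2 was 14.1 and 15.9 FPKM in the Cd73N libraries labelled wild type and Ezh2-cKO, and 5.38 and 3.45 FPKM in the Cd73P libraries. FPKM of the whole gene does not separate the floxed part, and each Ezh2-cKO library is therefore named by its label. The genotypes also differed in sex-linked RNA, with 4 Y-linked genes summing to 26.8, 0.716, 27.9 and 0.496 FPKM and Xist at 52.2, 240, 47.0 and 95.6 FPKM.

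Promoter sequence was at hand for 6 of the 10 genes, Bsn, Pclo, Ctbp2, Cacna1f, Cacnb2 and Unc119, as 10 windows of 300 bases around RefSeq start sites. The windows were searched on both strands for the letters TAATCC, the core read by CRX-type homeodomain factors of photoreceptors, and TGCTGAC, a core of the rod factor NRL. TAATCC was found in 2 of the 10 windows, 1 of Ctbp2 and 1 of Unc119, and in 7.06% of all 32851 windows of the table. TGCTGAC was found in none of the 10 and in 4.67% of all windows. The 250 bases before each of 2 starts of Ctbp2 and of Unc119 are shown, because both genes were higher in Cd73P and each had a start with the core. The table holds 2 windows of Ctbp2 and 3 of Unc119, and the Unc119 window left out here also lacks the core. They come from RefSeq on GRCm38.p6, read 5′ to 3′ on the gene's strand, with GGATTA, which is TAATCC on the other strand, in capitals. The Ctbp2 windows are chr7:133015248-133015497 and chr7:133081861-133082110 on the minus strand, and those of Unc119 are chr11:78345334-78345583 and chr11:78343245-78343494 on the plus strand.
Ctbp2, start with the core: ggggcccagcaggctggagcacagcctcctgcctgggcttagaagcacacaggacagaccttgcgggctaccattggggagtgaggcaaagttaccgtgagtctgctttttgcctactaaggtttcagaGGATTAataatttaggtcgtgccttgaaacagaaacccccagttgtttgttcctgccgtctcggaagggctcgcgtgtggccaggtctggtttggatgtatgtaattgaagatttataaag
Ctbp2, start without it: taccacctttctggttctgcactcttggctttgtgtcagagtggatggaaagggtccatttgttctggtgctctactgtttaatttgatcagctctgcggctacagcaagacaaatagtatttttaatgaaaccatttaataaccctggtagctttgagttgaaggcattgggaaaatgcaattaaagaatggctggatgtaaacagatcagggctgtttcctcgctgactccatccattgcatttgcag
Unc119, start with the core: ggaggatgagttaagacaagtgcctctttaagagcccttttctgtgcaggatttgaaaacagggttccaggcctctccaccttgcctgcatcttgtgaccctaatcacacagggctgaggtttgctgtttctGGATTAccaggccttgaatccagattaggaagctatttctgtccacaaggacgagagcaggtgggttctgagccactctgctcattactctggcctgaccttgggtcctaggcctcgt
Unc119, first of 2 starts without it: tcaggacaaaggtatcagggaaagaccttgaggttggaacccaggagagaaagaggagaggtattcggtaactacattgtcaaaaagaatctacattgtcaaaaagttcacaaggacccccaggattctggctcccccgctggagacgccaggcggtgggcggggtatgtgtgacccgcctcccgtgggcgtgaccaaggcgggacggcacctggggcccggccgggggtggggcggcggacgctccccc
The core lay 121 bases before the start in Ctbp2 and 118 bases before it in Unc119. Matched letter by letter to build mm9, on which the expression tables rest, the Ctbp2 start with the core was at position 140206930 of chromosome 7, 1 base from the start of a coding transcript whose first exon is 1731 bases long. A long first exon of this kind encodes the part of RIBEYE that CtBP2 lacks. The Unc119 starts without the core lay 11 and 44 bases from those of coding transcripts. The Unc119 start with the core lay 1082 bases from the nearest, and the Ctbp2 start without the core 29931 bases. A match of letters is a description of the window and not evidence of binding.

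The 10 genes differed widely in level. In Cd73P wild type the order was Unc119 at 1536 FPKM, Cplx4 at 268, Ctbp2 at 116, Cabp4 at 94.8, Cacna2d4 at 60.2, Cacnb2 at 40.8, Cacna1f at 35.3, Rims2 at 23.3, Pclo at 8.51 and Bsn at 2.21 FPKM. No neighbours in that order had overlapping FPKM bounds. In Cd73N wild type Unc119 again came first and Bsn last, and the neighbours Cacna2d4 and Ctbp2, and Cacna1f and Rims2, had overlapping bounds. The bounds of Ctbp2 and Cplx4, at 63.4 and 62.0 FPKM there, did not overlap, but Cplx4 lay above its own upper bound. So did 4 of the 10 genes in Cd73N wild type and 5 in Cd73P wild type. The bounds therefore do not settle every place in the order. The 10 genes together held 0.24%, 0.214%, 0.71% and 0.876% of all FPKM, and Unc119 alone made up 68.0% to 72.0% of their sum.

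**Figure D1:**
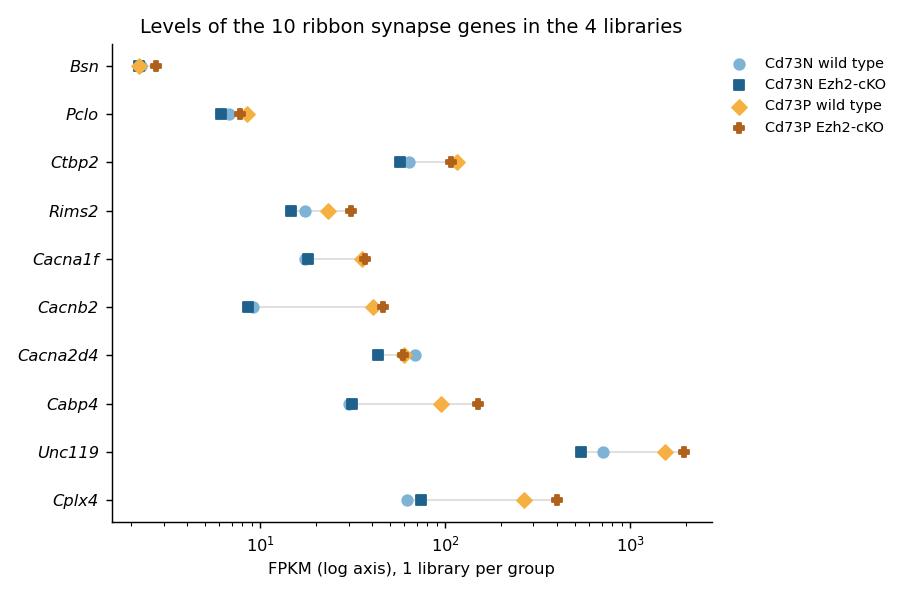
FPKM of the 10 ribbon synapse genes on a log axis, with 1 point for each of the 4 libraries and a grey line from the lowest to the highest. Unc119 lies between 543 and 1964 FPKM, Bsn between 2.20 and 2.73 FPKM, and the Cd73P points of Cacnb2, Cabp4 and Cplx4 lie to the right of their Cd73N points.

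In wild type, 6 of the 10 genes were higher in Cd73P than in Cd73N and none was lower. Cplx4, Cacnb2, Cabp4, Unc119, Cacna1f and Ctbp2 were higher by 1.83-fold to 4.46-fold, whereas Rims2, Pclo, Bsn and Cacna2d4 lay within 1.5-fold. Among all 21704 genes compared, 9.08% were higher and 27.9% lower in Cd73P. Of the 8 ribbon genes with at least 10 FPKM in either library, 6 were higher, beside 16.6% higher and 46.4% lower among all genes at that level. The median log2 ratio of the 10 genes was 0.91, against -0.05 over all genes. In the libraries labelled Ezh2-cKO, 7 were higher in Cd73P, Rims2 being added, and none was lower, beside 8.4% higher and 29.1% lower among all genes. With at least 10 FPKM it was 7 of 8, beside 17.1% higher and 42.1% lower. The median there was 1.002, against -0.09 over all genes. The rod markers, all 11 of which were higher in both genotypes, had a median of 5.48 in wild type and 6.25 in Ezh2-cKO, so that no ribbon gene reached the median of the rod list.

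**Figure D2:**
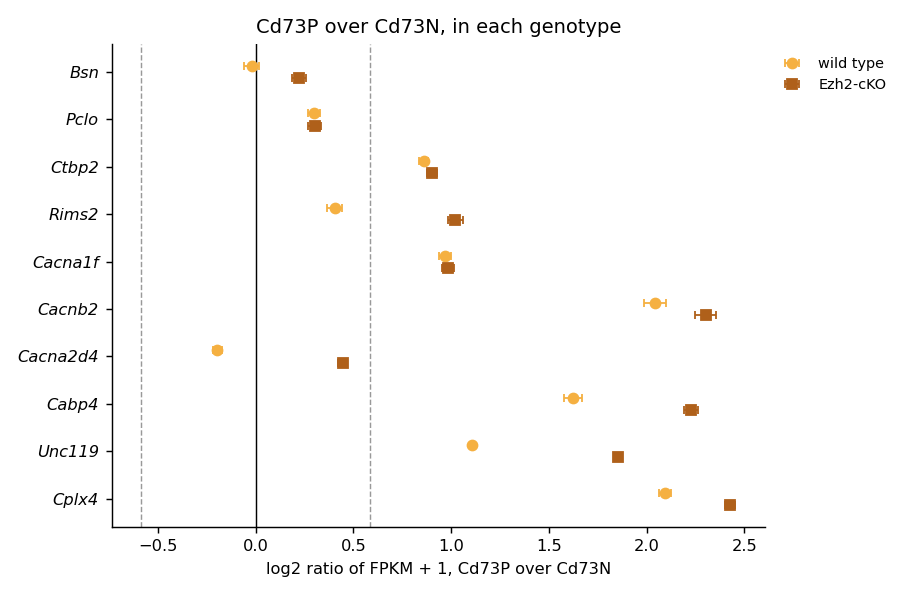
Log2 ratio of FPKM + 1 in Cd73P over Cd73N for each gene and each genotype, with bars of 1 counting SE and dashed lines at 1.5-fold. Cplx4 and Cacnb2 have the highest ratios in wild type, 2.09 and 2.04, and every gene has a higher ratio in Ezh2-cKO than in wild type, by 0.0032 for Pclo to 0.75 for Unc119.

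In the ribbon and its scaffold, Ctbp2 was higher in Cd73P in both genotypes and Rims2 in Ezh2-cKO, while Bsn and Pclo lay within 1.5-fold in both. Bsn (chr9:107998353-108092714, mm9) encodes Bassoon, the large scaffold that holds the ribbon at the active zone, and was 2.25, 2.20, 2.21 and 2.73 FPKM. The first 3 libraries were alike and Cd73P labelled Ezh2-cKO was the highest, at a log2 ratio to its wild type of 0.22 ± 0.037 (SE). An antisense long noncoding RNA overlaps an exon of Bsn in GENCODE, and the library protocol, as described, marked no strand, so that reads of the overlap cannot be told apart. Pclo (chr5:14514918-14863459) encodes Piccolo, its relative, of which photoreceptor ribbons use a short form called Piccolino. It was 6.73, 6.12, 8.51 and 7.77 FPKM. Both Cd73P libraries were above both Cd73N libraries, by a log2 ratio of 0.30 in each genotype, and FPKM of the gene does not separate the short form from the full one.

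Ctbp2 (chr7:140178694-140315166), the gene of RIBEYE and of the nuclear corepressor CtBP2, was 63.4, 57.2, 116 and 108 FPKM. It was higher in Cd73P by a log2 ratio of 0.86 ± 0.024 (SE) in wild type and 0.90 ± 0.024 in Ezh2-cKO, and lower in Ezh2-cKO by less than 1.5-fold in both fractions. GENCODE places 18 coding transcripts at the locus, and the tables give 1 value for it, so that RIBEYE and CtBP2 were not measured separately. Its paralogue Ctbp1, which has no ribbon isoform, went the other way, at 93.6, 84.7, 30.5 and 30.8 FPKM. A long gene model of Fgfr2 that overlaps Ctbp2 on the same strand stayed at or below 0.124 FPKM in every library.

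Rims2 (chr15:39029878-39513486) encodes RIM2, the active zone protein that ties the calcium channels of photoreceptors to release. It was 17.3, 14.7, 23.3 and 30.9 FPKM. Its fraction ratio was 0.40 ± 0.038 (SE) in wild type and 1.02 ± 0.037 in Ezh2-cKO. On the unscaled values it alone of the 10 genes passed 1.5-fold in Ezh2-cKO and not in wild type. This contrast depended on scaling. Under the alternatives its wild-type ratio reached 0.81, past the log2 threshold of 0.585, and that of Pclo reached 0.67.

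The 3 channel genes did not move together. Cacna1f (chrX:7184229-7212322) encodes the pore Cav1.4, whose loss causes stationary night blindness, and was 17.5, 18.04, 35.3 and 36.6 FPKM. Both Cd73P libraries were about the same and lay above both Cd73N libraries, with log2 ratios of 0.97 ± 0.032 (SE) in wild type and 0.98 ± 0.030 in Ezh2-cKO. The gene is on the X chromosome, where the genotypes differ in sex-linked RNA, and its genotype ratios were 0.04 and 0.05 in Cd73N and Cd73P. The median of the X-linked genes with at least 10 FPKM was -0.21 in Cd73N and -0.12 in Cd73P, and that of the other chromosomes was -0.15 and -0.04.

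Cacnb2 (chr2:14525933-14908560) encodes the beta subunit that traffics Cav1.4 to the rod terminal, and was 9.16, 8.61, 40.8 and 46.4 FPKM. It had the highest fold of the 10 between the wild-type fractions without the pseudocount, 4.46-fold, and 5.39-fold in Ezh2-cKO. The pseudogene Gm10849, not measured here, overlaps an exon of Cacnb2 on the opposite strand in GENCODE, and reads of that overlap cannot be told apart either. Another pseudogene inside the locus that shares no exon with it in GENCODE, Gm13315, was 30.4, 25.5, 50.7 and 55.5 FPKM. Cacna2d4 (chr6:119186544-119302425) encodes the alpha2delta subunit of the same channel and was 69.0, 43.1, 60.2 and 59.0 FPKM. It stood apart from its channel partners: 3 libraries lay between 59.0 and 69.0 FPKM and Cd73N labelled Ezh2-cKO lay below them. Its fraction ratio was -0.20 ± 0.021 (SE) in wild type, which became 0.11 and 0.22 with scaling by the median ratio and by the FPKM sum, and 0.45 ± 0.022 in Ezh2-cKO. Lrtm2, which lies within Cacna2d4 on the opposite strand without sharing an exon, was 30.4, 16.8, 2.71 and 0.736 FPKM, and its part in the value of Cacna2d4 was not tested.

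Cabp4 (chr19:4135423-4139609), a calmodulin-like protein that binds Cav1.4 and lets it open at more negative voltage, was 30.1, 31.4, 94.8 and 151 FPKM. The Cd73N libraries were alike, and in Cd73P the library labelled Ezh2-cKO was above wild type. Its fraction ratio was 1.62 ± 0.045 (SE) in wild type and 2.23 ± 0.037 in Ezh2-cKO. Unc119 (chr11:78157024-78162658), a lipid-binding chaperone of photoreceptors that carries transducin and also binds CaBP4 at the terminal, was 712, 543, 1536 and 1964 FPKM. Among 21714 genes of wild type it ranked 11 in Cd73P and 46 in Cd73N, and its level is not a measure of the synapse alone. Cplx4, a complexin of photoreceptor terminals that binds the SNARE complex, was 62.0, 73.8, 268 and 401 FPKM. It was higher in Cd73P by 2.09 ± 0.028 (SE) in wild type and 2.43 ± 0.025 in Ezh2-cKO, the highest log2 ratios of the 10 in both.

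The deposited FPKM bounds, on whose width the SEs rest, bear on 5 of these genes, whose FPKM lay above its own upper bound. This was not special to them. Depending on the library, 2673 to 3600 of all 23021 rows lay above their own upper bound. Among those at 1 FPKM or more the share was up to 27.8%. Unc119 lay 16.3% to 17.6% above its own upper bound in the 4 libraries, Cabp4 7.11% to 12.2%, Cplx4 7.06% to 10.6% and Cacna2d4 0.289% to 0.558%, and Cacnb2 lay up to 1.91% above it in Cd73P. With the midpoint of the bounds in place of FPKM, no ratio of the 10 genes changed its sign.

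The relatives of most of the genes differed between the fractions. For 8 of the 10 genes the paralogues in the tables were taken as a family, after their values were seen, and the share of the ribbon gene in the summed FPKM of its family was computed in each library. In Cd73P the ribbon gene was the highest of its family in 8 of 8 families in both genotypes, with 68.2% to 99.2% of the sum in wild type. In Cd73N it was the highest in 3 of 8 families, those of Cacna2d4, Rims2 and Unc119. Unc119 had like shares in both fractions, 98.1% and 99.2% in wild type, with Unc119b at 13.7 and 12.8 FPKM.

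**Figure D3:**
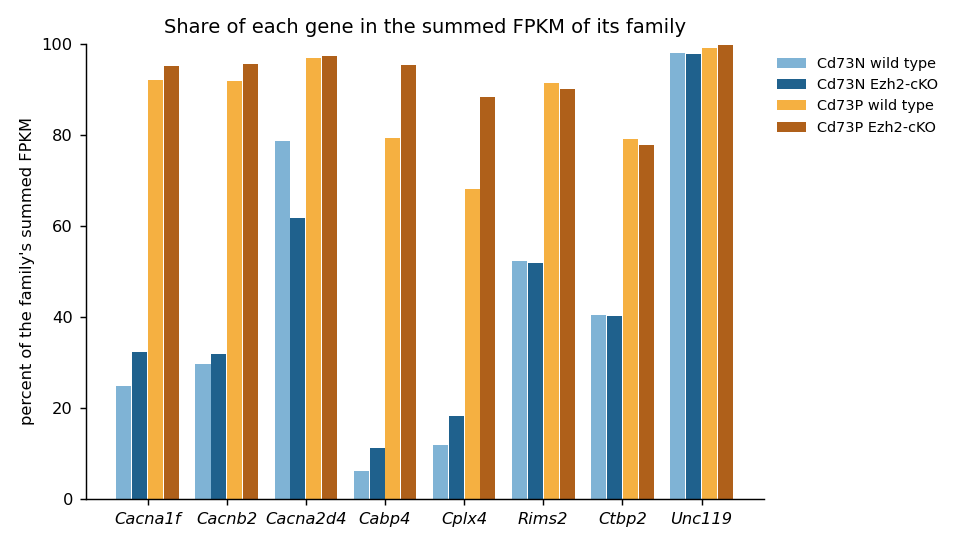
Percent of the summed FPKM of its family held by each ribbon gene, with 1 bar per library. Cacna1f, Cacnb2, Cabp4 and Cplx4 lie between 6.15% and 32.2% in the Cd73N libraries and at 68.2% or more in the Cd73P libraries, whereas Unc119 is at 97.7% or more in all 4.

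Cacna1f held 24.8% of the FPKM of 10 pore subunits in Cd73N wild type and 92.1% in Cd73P wild type. The highest pore subunit of Cd73N wild type was the T-type channel Cacna1h at 25.2 FPKM, which was 1.07 FPKM in Cd73P. Its L-type relative Cacna1d was 8.07 and 0.402 FPKM in the same libraries. In the Ezh2-cKO libraries the share of Cacna1f was 32.2% and 95.2%, the first without Cacna1g, whose fit failed in that library.

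Cacnb2 held 29.6% of the beta subunits in Cd73N wild type and 91.8% in Cd73P wild type, with Cacnb3 at 15.3 and 2.44 FPKM. Cacna2d4 held 78.7% and 96.9% of the alpha2delta subunits, so that it led in both fractions, and its share in Cd73N labelled Ezh2-cKO was 61.7%. Rims2 held 52.3% and 91.4% of the RIM genes. Of the 15 other calcium channel subunits, 14 were lower in Cd73P wild type, none was higher, and their median log2 ratio was -1.27. Among all genes 27.9% were lower and 9.08% higher, and at 10 FPKM or more 46.4% and 16.6%.

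The calcium sensors and complexins differed between the fractions in the same way. Cabp4 held 6.15% of the summed FPKM of 4 CaBP genes in Cd73N wild type and 79.4% in Cd73P wild type. Cabp5, the sensor of bipolar cells, was 327, 187, 15.9 and 3.78 FPKM, and Cabp1 was 89.6, 40.1, 3.14 and 0.667 FPKM. Cplx4 held 11.8% of the complexins in Cd73N wild type and 68.2% in Cd73P wild type. Cplx3, its closest relative, found in cones, bipolar and amacrine cells, was 405, 265, 75.1 and 39.5 FPKM. Cplx2 was 31.5, 26.7, 48.6 and 12.6 FPKM and thus higher in Cd73P in wild type, unlike Cplx1 and Cplx3, and the share of Cplx4 in Cd73P labelled Ezh2-cKO was 88.3%.

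Between the genotypes most of the ribbon genes lay within 1.5-fold. Ranked among all genes, many of them not expressed, the ratios ran from percentile 1.2 (Cacna2d4) to 82.5 (Cplx4) in Cd73N. In Cd73P they ran from percentile 23.1 (Pclo) to 98.3 (Cabp4). In Cd73N, 1 of the 10 was lower in the library labelled Ezh2-cKO and none was higher, beside 1.71% lower and 7.18% higher among all genes. It was Cacna2d4, at 43.1 against 69.0 FPKM and a log2 ratio of -0.67 ± 0.022 (SE), which with scaling by the FPKM sum was -0.52 and inside 1.5-fold. Of the 7 ribbon genes with at least 10 FPKM there, 1 was lower, beside 3.64% lower and 8.06% higher. Unc119, at 543 against 712 FPKM, had the next lowest ratio, -0.39 ± 0.013, and Cplx4 the highest, 0.25 ± 0.034. The median of the 10 was -0.10, against 0.00 over all genes. At 10 FPKM or more the medians were alike, -0.148 for the 7 ribbon genes and -0.156 over all genes. In the same comparison the markers of other cells differed by more. The 8 Müller glia markers were all higher, with a median of 2.35, 7 of 12 bipolar markers were lower, with a median of -0.76, and 7 of 12 rod markers were lower, with a median of -0.75. Of the 10 cone markers 3 were higher and none lower. The part of this makeup in the ratios of the ribbon genes was not tested.

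In Cd73P, 1 of the 10 was higher in the library labelled Ezh2-cKO and none was lower, beside 2.26% higher and 2.38% lower among all genes. Of the 8 with at least 10 FPKM, it was again 1 higher, beside 3.25% higher and 2.06% lower. Cabp4, at 151 against 94.8 FPKM, had a log2 ratio of 0.66 ± 0.029 (SE). Cplx4, at 401 against 268 FPKM, had a ratio of 0.58 ± 0.017 and a fold of 1.498, just inside the threshold. Rims2 came next at 0.39 ± 0.036 and Unc119 at 0.35 ± 0.0071, whereas Pclo, Ctbp2 and Cacna2d4 had negative ratios of -0.12, -0.11 and -0.03, the last of which was 0.01 with scaling by the median ratio. The median of the 10 was 0.20, against 0.00 over all genes. At 10 FPKM or more it was 0.27 for the 8 ribbon genes and -0.05 over all genes. Of the 11 rod markers 2 were higher and none lower, with a median of 0.34, while 8 of 10 cone markers and 9 of 12 bipolar markers were lower, with medians of -0.99 and -1.47, and 7 of 8 Müller glia markers were higher. The part of this makeup in the ratios was not tested here either.

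**Figure D4:**
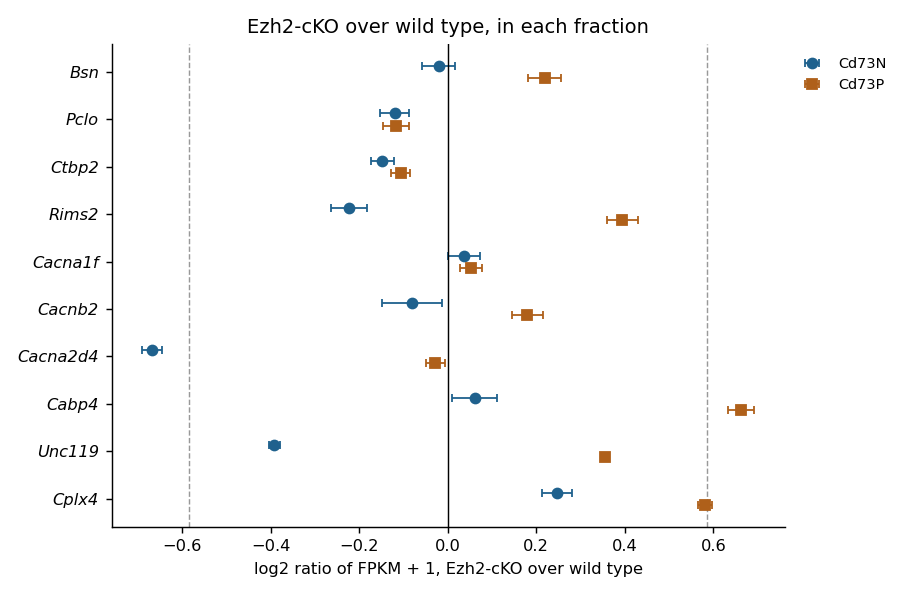
Log2 ratio of FPKM + 1 in Ezh2-cKO over wild type for each gene, in Cd73N and in Cd73P, with bars of 1 counting SE and dashed lines at 1.5-fold. Cacna2d4 in Cd73N (-0.67) and Cabp4 in Cd73P (0.66) lie outside the dashed lines, and for all 10 genes the Cd73P point lies at or to the right of the Cd73N point.

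The genotype ratio was greater in Cd73P than in Cd73N for all 10 genes, as it was for 37.5% of all 21692 genes, many of which are not expressed. At 10 FPKM or more in any library it was 8 of 8 ribbon genes and 56.0% of 7623 genes. The difference of the 2 ratios, which uses all 4 libraries and is the same as the difference of the 2 fraction ratios, ran from 0.0032 ± 0.045 (SE) for Pclo, 0.01 ± 0.044 for Cacna1f and 0.04 ± 0.034 for Ctbp2 to 0.75 ± 0.015 for Unc119. It exceeded 1.5-fold for 4 genes, Unc119, Cacna2d4 (0.64), Rims2 (0.62) and Cabp4 (0.60), and the reverse held for none, beside 2.99% and 8.71% of all genes. At 10 FPKM or more in 1 of the libraries the 4 were among 8 ribbon genes, beside 5.0% and 10.9%. All 11 rod markers also had a greater ratio in Cd73P, with a median difference of 0.97, and all 10 cone markers a smaller one, with a median of -1.36. After scaling of the libraries by their FPKM sums the difference remained above 0 for 7 of the 10 and passed 1.5-fold for 0. The shares of all genes were not computed with that scaling, and the shares above are of unscaled values.

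**Figure D5:**
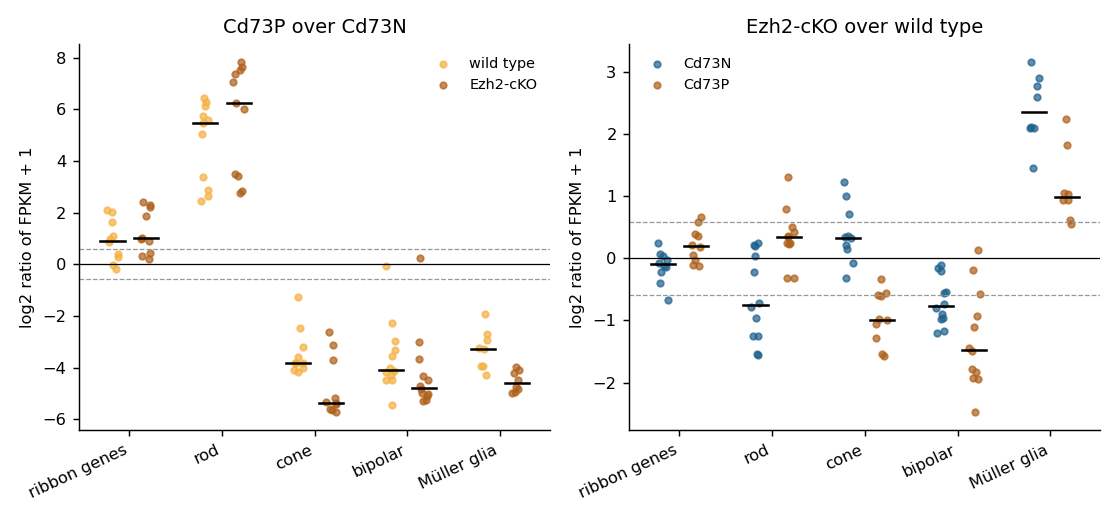
Log2 ratio of FPKM + 1 for each ribbon gene and each marker of rods, cones, bipolar cells and Müller glia, in Cd73P over Cd73N on the left and Ezh2-cKO over wild type on the right. Black bars mark list medians and dashed lines 1.5-fold. The ribbon genes (median 0.91 in wild type) lie between the rod markers (5.48) and the cone markers (-3.82), and their genotype medians, -0.10 in Cd73N and 0.20 in Cd73P, are the nearest to 0 of the 5 lists shown.

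The other genes of the synapse were taken from 6 lists of 107 genes. In wild type 15 of the 107 were higher in Cd73P and 67 lower, and in Ezh2-cKO 16 and 70 of 106. Over all genes, 9.08% were higher and 27.9% lower in wild type, and 8.4% and 29.1% in Ezh2-cKO. Among genes with at least 10 FPKM, a limit not put on the lists, it was 16.6% and 46.4% in wild type. In Ezh2-cKO it was 17.1% and 42.1% at that level. Genes higher in Cd73P included Doc2b, a calcium sensor of vesicle fusion, at 88.4 against 13.3 FPKM in wild type, Mpp4, a scaffold of the photoreceptor terminal membrane, at 273 against 51.9 FPKM, and 2 genes of the cleft. The latter were Egflam, the gene of pikachurin, which links the terminal to bipolar dendrites through dystroglycan, at 88.3 against 13.3 FPKM, and Elfn1, an adhesion protein through which rods contact rod bipolar cells, at 28.7 against 5.93 FPKM. Genes lower in Cd73P included Unc13c, a vesicle priming factor, at 0.354 against 15.4 FPKM, and Syn1, a synapsin that ribbon terminals are known to lack, at 1.87 against 32.2 FPKM.

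By role, 11 of 18 active zone scaffold genes, 12 of 21 fusion genes, 8 of 16 vesicle genes, 12 of 19 genes of terminal calcium and anchoring and 10 of 18 cleft and adhesion genes were lower in Cd73P wild type. The numbers that were higher were 1, 3, 1, 4 and 6 in the same order. Over all genes 27.9% were lower and 9.08% higher, and at 10 FPKM or more 46.4% and 16.6%. Some vesicle genes were abundant in both fractions. Slc17a7, the glutamate transporter of photoreceptor and bipolar vesicles, was 419, 296, 490 and 623 FPKM, which was within 1.5-fold between the wild-type fractions and higher in Cd73P of Ezh2-cKO, at a log2 ratio of 1.07. Syp, the gene of synaptophysin, was 716, 478, 637 and 577 FPKM and lay within 1.5-fold between the fractions of both genotypes.

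Between the genotypes, 15 of 106 listed genes were higher and 5 lower in Cd73N labelled Ezh2-cKO. Over all genes it was 7.18% and 1.71%, and 8.06% and 3.64% at 10 FPKM or more. The 5 lower genes were Cabp1, Cabp2, Cabp5, Cplx3 and Syt2, and Synpr, the gene of synaptoporin, was the highest of the higher ones by ratio, at 162 against 49.8 FPKM. In Cd73P labelled Ezh2-cKO 2 of 107 were higher and 12 lower, beside 2.26% and 2.38% of all genes, and 3.25% and 2.06% at 10 FPKM or more. The higher ones were Elfn1, at 45.4 against 28.7 FPKM, and Lrfn2, at 9.52 against 3.47 FPKM, and Cplx2 had the lowest ratio, at 12.6 against 48.6 FPKM. Elfn1 was also higher in Cd73N, at 12.1 against 5.93 FPKM. Lrfn2, Syt2 and Mpp4 were named after their values were seen.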

How the data were processed

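RNA-seq was made from 4 libraries of sorted P12 retinal cells, 1 per group, grouped by their titles. The authors ran bcl2fastq 1.8.4, aligned 36-base single-end reads to mm9 with TopHat 2.0.8b (coverage search, up to 50 hits per read) and deposited Cufflinks 2.1.1 FPKM with a lower and an upper bound. Read totals were not given, so depth is unknown; relative to Cd73N wild type, the bounds of 6227 genes gave 1.17, 1.00 and 1.04 for Cd73N Ezh2-cKO, Cd73P wild type and Cd73P Ezh2-cKO.

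From these values, rows sharing a symbol were summed, 727 small RNA symbols were left out, and pairs of libraries were compared as log2(FPKM + 1), which understates the change of low genes, for genes with status OK in both. SEs took the width of the bounds as 4 SE. Counts past 1.5-fold were set beside those of all genes. No p-value was computed. The counting script was tested on simulated data. Python 3.11.15, pandas 2.3.3, numpy 2.4.6 and matplotlib 3.10.9 were used. Promoters came from a RefSeq table on GRCm38.p6 and annotation from GENCODE on mm9.

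The members and lists were chosen with earlier results of these data known. Genes named were the 10 members, Ezh2, Nt5e, Xist and the Y-linked genes, up to 4 genes per list and comparison with the largest ratios at 10 FPKM or more, and the 3 genes nearest in pattern to each member, by Euclidean distance of centred log2 values. Alternatives were pseudocounts of 0.1 and 5, scaling by the median ratio or the FPKM sum, a 2-fold threshold, a minimum of 10 FPKM, a plain ratio at 1 FPKM or more and non-overlapping bounds. The midpoint of the bounds, the families and the difference of the genotype ratios were added after the data were seen.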

Additional observations from a re-analysis of the deposited data

Results flagged for a closer look

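For 4 of the 10 ribbon synapse genes the genotype ratio had opposite signs in the 2 fractions, lower in the Ezh2-cKO library of Cd73N and higher in that of Cd73P. Opposite signs were found for 33.5% of all genes, and this order of signs for 13.5%. At 10 FPKM or more in any library, 3 of 8 ribbon genes had opposite signs, in this order, beside 38.8% of all genes with opposite signs and 22.1% in this order. The log2 ratio was -0.39 in Cd73N and 0.35 in Cd73P for Unc119, a difference of 0.75, and -0.22 and 0.39 for Rims2, a difference of 0.62. It was -0.08 and 0.18 for Cacnb2, a difference of 0.26, and -0.02 and 0.22 for Bsn, a difference of 0.24. With 1 library per genotype in each fraction the differences were not tested. The Cd73N ratios of Bsn and Cacnb2 changed sign when libraries were scaled by their FPKM sums, to 0.08 and 0.05, and those of Unc119 and Rims2 did not.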

How the results depend on the processing

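The number of genes higher or lower between fractions stayed within 1.5 times the reported one under all alternatives run, in both genotypes. Between genotypes, counts of 1 changed. The number lower in Cd73N became 0 with FPKM-sum scaling and 0 at 2-fold. The number higher in Cd73P became 2 with median scaling and 0 at 2-fold. The number whose genotype ratio in Cd73P exceeded that in Cd73N by 1.5-fold, 4 as reported, became 2 with median scaling, 0 with FPKM-sum scaling and 0 at 2-fold. The shares of all genes were not computed with scaling or at 2-fold. Without the pseudocount, median scaling shifts every log2 ratio of Cd73P over Cd73N by 0.31 in wild type and 0.27 in Ezh2-cKO. FPKM-sum scaling shifts these by 0.43 and 0.22. Genotype ratios shift by 0.08 and 0.15 in Cd73N and by 0.04 and -0.06 in Cd73P. With the pseudocount, genes of low level shifted by less. The wild-type fraction ratio of Bsn went from -0.02 to 0.20 with median scaling and 0.27 with FPKM-sum scaling. Of 40 single ratios, 4 changed sign with median scaling and 6 with FPKM-sum scaling, each within 1.5-fold as reported, and 0 with another pseudocount, the plain ratio or the midpoint of the bounds. Of the recomputed list counts 335 stayed within 1.5 times and 97 moved. No paired analysis was made: the labels carry no replicate numbers, and a fit with genotype as a block, which would take different genotypes as replicates, was not run. Depth is unknown, and the SEs do not cover animals or sorts.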

Other observations

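The genes nearest to each ribbon gene in pattern were sought among 7623 genes, as the distance between 4 centred log2 values, which is a description of 4 libraries. The nearest to Cacnb2 was Ppef2, a phosphatase of photoreceptors, at a distance of 0.0703 and with 26.7, 24.0, 114 and 130 FPKM in Cd73N wild type, Cd73N Ezh2-cKO, Cd73P wild type and Cd73P Ezh2-cKO. The nearest to Cacna2d4 was Tpd52, at 0.0553 and with 172, 108, 151 and 141 FPKM. Its low value in Cd73N Ezh2-cKO is part of the pattern by which it was picked. The nearest to Unc119 was Hmgn1, a nucleosome-binding protein, at 0.124 and with 376, 288, 852 and 967 FPKM. Among the ribbon genes themselves, the closest pairs were Ctbp2 with Cacna1f at 0.197, Bsn with Pclo at 0.318 and Cabp4 with Cplx4 at 0.365, and the most distant pair was Cacna2d4 with Cplx4 at 2.27. None of the 3 genes nearest to any member was another member. Bsn and Pclo could not have been found, because the search was limited to genes with at least 10 FPKM in some library.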
